A study of Homo sapiens with 18 samples.

Results

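The baseline of LNCaP cells was described from the 4 control libraries of a series of 18 RNA sequencing libraries, and these 4 were taken by their group labels, without use of any measured value. LNCaP, a human line from a prostate cancer metastasis that responds to androgens, was grown here in RPMI medium with fetal bovine serum, and total RNA was sequenced. The DMSO control is 2 libraries of cells kept for 24 h with the solvent of the compounds, and it belongs to a table of 8 libraries that also holds cells given 10 uM of UPF1069, olaparib or veliparib. The siNC control is 2 libraries of cells transfected for 72 h with a control siRNA, and it belongs to a second table of 10 libraries that also holds siRNAs against PARP1 and PARP2. Neither control is an untreated culture, the series calls the duplicates biological, and every library comes from 1 cell line. The controls differ at once in agent, transfection, hours in culture and table, so the sources of a difference between them cannot be told apart. No test was made between them, and all differences are given as descriptions.

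LNCaP cells keep the programme of the luminal cells that line prostate glands. In such cells androgens act with transcription factors such as FOXA1, which gives access to chromatin, HOXB13 and GATA2 to drive genes for secreted proteases such as prostate-specific antigen and for membrane proteins of the gland. Androgens restrain other genes, among them the UGT2B enzymes that couple androgens to glucuronic acid for export. Basal cells, fibroblasts, endothelium and immune cells of the gland are marked by other keratins, collagens and surface proteins, and none of these belong to a pure luminal line.

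The tables share 17714 features by Ensembl identifier. Whole reads were recovered from the deposited values, and levels are given as RPM, reads scaled so that the shared features of every library sum to the same total. The DMSO libraries held 28.79 and 34.11 M such reads, and the siNC libraries 16.25 and 17.86 M, so that 3 reads make 0.104, 0.088, 0.185 and 0.168 RPM in the same order. Features with a mean of at least 1 RPM over the 4 libraries numbered 12900. Over these, Spearman's rho across genes was 0.999 between the DMSO duplicates, 0.997 between the siNC duplicates and 0.909 between the control means, where genes are not independent replicates. The median absolute log2 difference between duplicates was 0.05 for DMSO and 0.10 for siNC. The siNC libraries spread their reads over fewer genes: 758 and 794 genes held 50% of the reads, against 974 and 966 in DMSO.

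Beside copies of mitochondrial genes, described further on, genes of protein synthesis were among those with the highest levels per length in both controls. Per length (TPM, the same scaling after reads are divided by exon length), BCYRN1, a neuronal cytoplasmic RNA derived from a repeat family, stood at 10452 in DMSO and 9901 in siNC, although reads of so short and repeat-derived a gene are uncertain. RPS12, a protein of the small ribosomal subunit, stood at 6328 and 9502 TPM, RPS18 at 4813 and 7184, and RPL13A of the large subunit at 6275 and 6510. The elongation factor EEF1A1, which brings aminoacyl-tRNA to the ribosome, had 7202 and 7147 RPM in the DMSO libraries and 11119 and 10606 RPM in the siNC libraries. Its partner EEF2, which moves the ribosome along the message, went the other way, with 7780 and 7631 RPM in DMSO and 3288 and 3494 RPM in siNC. For both factors the controls did not overlap, which held for all but 1191 of the 12900 features. The siNC values were the high ones for EEF1A1 and the low ones for EEF2. The glycolytic enzyme GAPDH stood at 2985 and 2987 RPM in DMSO and at 4217 and 4175 RPM in siNC. The 82 cytosolic ribosomal protein genes together took 9.23 and 9.49% of the reads in DMSO and 11 and 10.7% in siNC. Of the 100 genes with the highest TPM in either control, 72 were the same, and of the top 20, 12 were.

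Features that copy mitochondrial genes held several of the highest places in DMSO. Such copies sit on nuclear chromosomes and are mostly pseudogenes, with letters close to those of the mitochondrial genes for the respiratory chain. MTCO1P12, a copy of the cytochrome c oxidase gene MT-CO1 on chromosome 1, had 10056 and 9937 RPM in DMSO, more than any other feature there, and 5.29 and 3.47 RPM in siNC. MTCO2P12 had 2656 and 2700 RPM in DMSO and 1.05 and 0.728 RPM in siNC, and MTND4P12 had 1610 and 1549 RPM in DMSO and 0.308 and 0 RPM in siNC. The genes of the mitochondrial chromosome showed the reverse arrangement. The siNC rows hold 20 of them, which took 5.28 and 3.96% of all reads of the siNC libraries, with MT-CO1 at 3748 and 2443 RPM and MT-CO3 at 5039 and 2798 RPM. The DMSO rows analysed here hold 0 features of that chromosome, while 32 nuclear copies took 2.98 and 2.99% of all DMSO reads, against 0.02 and 0.01% for 14 copies in siNC. How reads of mitochondrial origin were assigned in each table was not tested, and no level of these copies is read here as transcription of the copy.

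**Figure D1:**
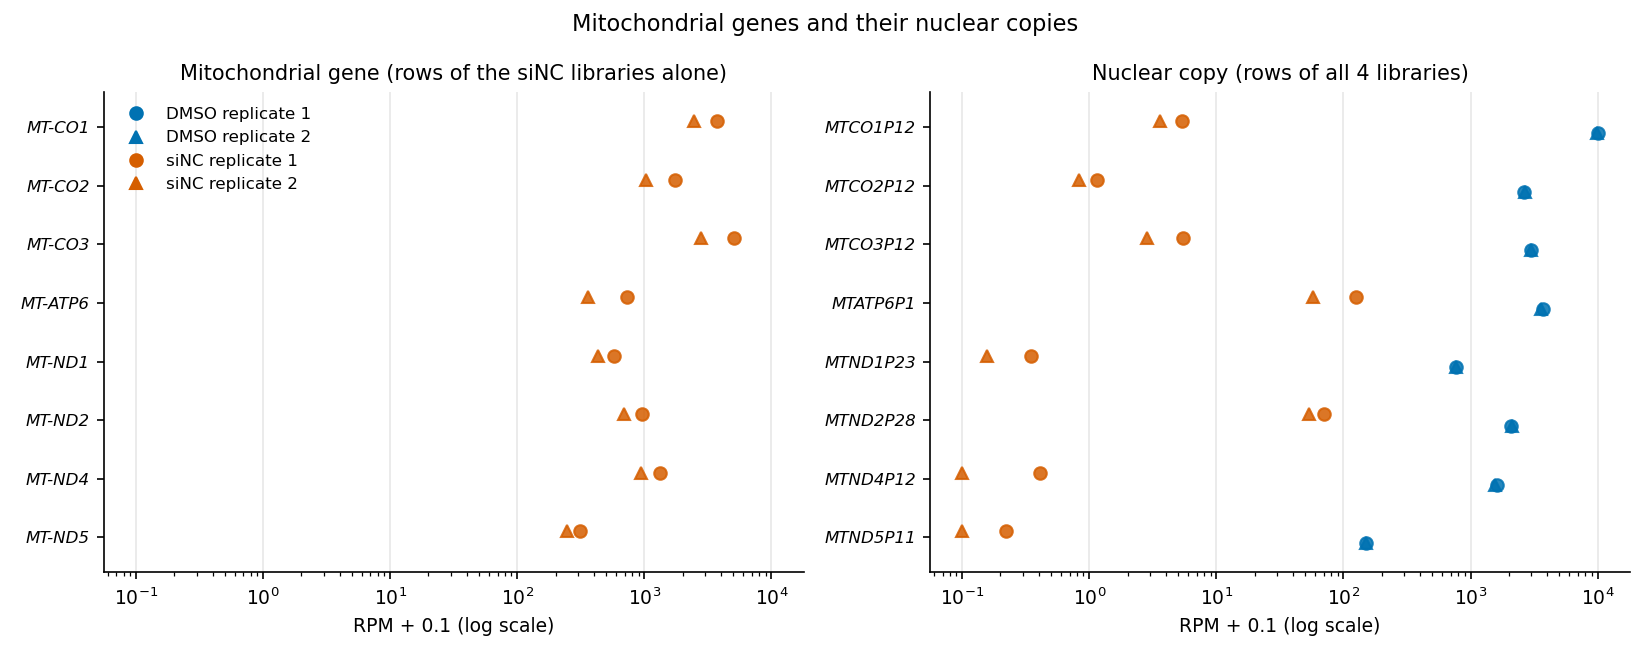
Levels of 8 mitochondrial genes (left) and of a nuclear copy of each (right) in the control libraries, as RPM plus 0.1 on a log axis, where points are single libraries, blue for DMSO and orange for siNC. The DMSO libraries carry the copies at 149 to 10056 RPM, and the siNC libraries carry the mitochondrial genes at 245 to 5039 RPM and the copies at 0 to 126 RPM.

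Most luminal transcription factors stood high in both controls. All 12 genes of the list passed the level filter, and their median percentile within a library was 92.2 in DMSO and 94.1 in siNC. Their median log2 difference between control means was 0.12 (siNC minus DMSO, on the log2(RPM + 1) scale used throughout), beside -0.20 over all 12900 features. FOXA1, the pioneer factor, had 341 and 339 RPM in DMSO and 195 and 173 RPM in siNC, and HOXB13 had 394 and 399 RPM against 242 and 275 RPM. GATA2 was also lower in siNC, with 183 and 182 RPM against 122 and 136 RPM. In contrast, GRHL2, an epithelial factor, had 133 and 130 RPM in DMSO and 252 and 279 RPM in siNC, and CREB3L4, a membrane-bound factor of the prostate, had 94.7 and 96.7 RPM against 204 and 228 RPM. Those 2 genes were the list's only members at least 2-fold apart between means and without overlap between libraries, the rule used for a 2-fold call; it called 4.6% of all features higher in siNC and 19.2% higher in DMSO. The Ets factors EHF and SPDEF were within 0.20 log2 units in either direction (-0.19 and 0.20), while ELF3, TRPS1 and KLF5 were low, at 3.93 to 12.3 TPM. Differences this small can turn sign with the scaling: on the trimmed-mean scale, where the median of all features is 0.00, EHF stood at 0.04. FOXA1 and HOXB13 stayed lower in siNC on that scale, while GATA2, with 59.7% GC, stood at 0.40 after the adjustment for GC content and length given below.

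The antigens of prostate secretions and membranes stood among the most abundant messages. KLK3, which encodes prostate-specific antigen, a protease that liquefies semen, had 1436 and 1440 RPM in DMSO and 1114 and 1378 RPM in siNC, ranking 85 and 131 by TPM among the 17231 features with a known exon length. Its measured difference of -0.21 was that of the median feature, and it stood at 0.01 on the trimmed-mean scale and at 0.37 after the GC and length adjustment. KLK2, its neighbour and activator, was lower in DMSO, at 259 and 271 RPM, than in siNC, at 396 and 441 RPM. The promoters of both are shown because they hold, in the same 14 letters, the classical proximal androgen response element. The element was searched as GAACANNNNGTNCT on both strands of RefSeq promoters (build GRCh38.p14, 250 bases before to 50 after a start), where it occurs in 87 of 35116, or 0.248%. In capitals is the match, whose first base lies 169 bases before the start of KLK3 and 175 before that of KLK2.
KLK3 promoter, chr19:50854665-50854964, plus strand: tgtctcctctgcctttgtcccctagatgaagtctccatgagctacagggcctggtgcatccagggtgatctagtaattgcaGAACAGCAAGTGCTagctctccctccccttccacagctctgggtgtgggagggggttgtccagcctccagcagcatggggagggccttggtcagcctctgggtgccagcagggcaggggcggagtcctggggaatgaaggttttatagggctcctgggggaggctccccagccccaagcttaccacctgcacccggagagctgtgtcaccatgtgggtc
KLK2 promoter, chr19:50873189-50873488, plus strand: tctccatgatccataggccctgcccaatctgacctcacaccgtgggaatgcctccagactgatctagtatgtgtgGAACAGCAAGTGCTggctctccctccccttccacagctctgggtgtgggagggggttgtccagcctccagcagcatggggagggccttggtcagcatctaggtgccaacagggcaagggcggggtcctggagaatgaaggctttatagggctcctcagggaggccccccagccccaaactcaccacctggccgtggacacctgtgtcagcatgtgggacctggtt
Aligned at the match, 225 of 294 bases were the same in both promoters (76.5%). The transcripts are alike too, so reads of KLK2 and KLK3 could be split between them in counting. FKBP5, EAF2 and the other 22 androgen-induced genes with a promoter in the table did not hold these letters in this window.

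Among the other antigens, STEAP1, a six-pass membrane metalloreductase, had 281 and 286 RPM in DMSO and 658 and 631 RPM in siNC, and it was the highest of the list per length in siNC (1548 TPM). FOLH1, which encodes prostate-specific membrane antigen, had 852 and 865 RPM against 1256 and 1183 RPM. TMPRSS2, an androgen-driven serine protease, had 495 and 491 RPM against 768 and 842 RPM. The steepest member was AZGP1, a secreted zinc-binding glycoprotein, with 31.2 and 31.5 RPM in DMSO and 104 and 126 RPM in siNC, 3.68-fold higher by means. ACPP, prostatic acid phosphatase, had 41.6 and 42.6 RPM against 98.5 and 96.7 RPM, although over all libraries of each table its difference was -0.65. KLK4, a kallikrein of the same cluster, was the only member called higher in DMSO, with 110 and 110 RPM against 48.8 and 52.1 RPM. In all, 16 of the 17 antigens in both tables passed the filter, and their median difference was 0.42. Of these, 3 were called 2-fold higher in siNC and 1 in DMSO, beside 4.6% and 19.2% of all features. SLC45A3, prostein, was level at 409 and 410 RPM against 396 and 425 RPM, with overlapping controls. The secretory TGM4 was at or under 0.672 RPM in the 4 control libraries.

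**Figure D2:**
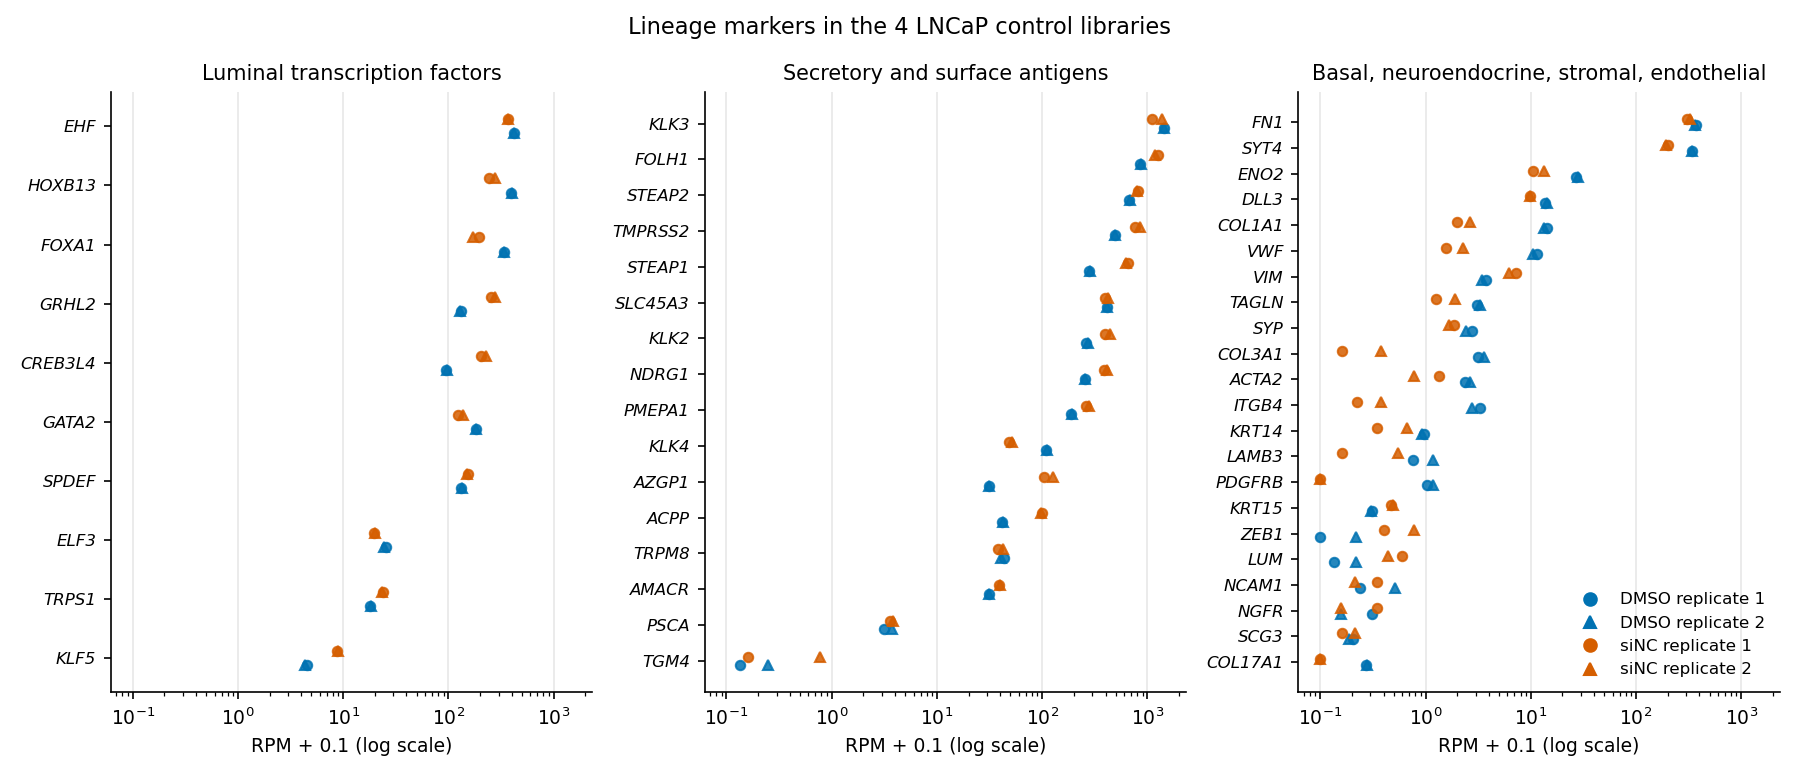
Lineage markers in the 4 control libraries, as RPM plus 0.1 on a log axis, with 1 row per gene and 1 point per library (blue DMSO, orange siNC, circles replicate 1, triangles replicate 2). Luminal factors and antigens lie mostly between 100 and 1440 RPM, while all but FN1 and SYT4 of the other markers lie at or under 28.3 RPM.

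Genes of epithelial structure were mostly high as well, with a median percentile of 94.1 in DMSO and 90.4 in siNC. Some members of that list were low. KRT19 had 5.59 and 5.69 RPM in DMSO and 16.3 and 18.3 RPM in siNC, and MUC1 stayed between 0.0615 and 0.243 RPM in the 4 libraries. The simple-epithelial keratins KRT8 and KRT18 had 543 and 560, and 187 and 187 RPM in DMSO, and 898 and 1042, and 346 and 349 RPM in siNC. The adhesion gene CDH1 had 506 and 498 RPM against 385 and 394 RPM. JUP, plakoglobin of desmosomes, had 310 and 309 RPM against 75 and 76.5 RPM, a 4.09-fold lower mean in siNC. JUP was the list's only member called higher in DMSO, and 1 was called in siNC, beside 19.2% and 4.6% of all features. After the adjustment for GC content and length given below, 0 members were called higher in DMSO and 4 in siNC. All features then had 8.05% and 4.66% called, and the list's median went from -0.21 to 0.38. Of the 10 basal markers, 6 were in both tables and only ITGB4 passed the filter. It had 3.23 and 2.64 RPM in DMSO and 0.123 and 0.280 RPM in siNC. Its difference of -1.71, called higher in DMSO, was -0.55 and not called after that adjustment. The summed level of the 6 was 4.98 to 5.35 RPM in DMSO and 1.05 to 1.74 RPM in siNC. KRT14 did not exceed 0.868 RPM in the 4 libraries, and COL17A1 had 0 reads in both siNC libraries, where 3 reads make 0.185 and 0.168 RPM. None of the 10 immune markers was in both tables, and those in 1 table had at most 4 reads in a control library, as CD14, CD68, LYZ, ITGAM, CD79A and PTPRC did. The endothelial marker VWF had 11.4 and 10.3 RPM in DMSO and 1.48 and 2.18 RPM in siNC, and the collagen COL1A1 had 14 and 13.2 RPM against 1.91 and 2.52 RPM. FN1, fibronectin, was the one high marker of the stromal list, at 374 and 366 RPM against 307 and 327 RPM, and VIM, vimentin, was low at 3.68 and 3.34 RPM against 7.08 and 6.05 RPM. Among neuroendocrine markers SYT4, a synaptotagmin, was high at 341 and 339 RPM against 200 and 195 RPM, while SYP, synaptophysin, stayed at 1.57 to 2.67 RPM and NCAM1 at or under 0.410 RPM. Among steroid receptors, the glucocorticoid receptor NR3C1 had 1.01 and 1.06 RPM in DMSO and 0 and 0.056 RPM in siNC, and the mineralocorticoid receptor NR3C2 had 16.0 and 15.6 RPM against 13.6 and 13.5 RPM.

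Across all features the controls differed far more than their duplicates. Libraries of the controls did not overlap for 4547 features higher and 7162 lower in siNC, out of 12900, and at 2-fold 593 were called higher in siNC and 2471 higher in DMSO. That split rests on scaling: with the trimmed mean of M values (TMM), which moves the median of all features from -0.20 to 0.00, the counts were 1059 and 1848. Of the features called on the RPM scale, all 593 and 1848 of the 2471 were also called with TMM. By rank within a library, which needs no scaling, 1324 features (10.3%) stood at least 10 percentile points higher in siNC and 1570 (12.2%) higher in DMSO without overlap. Of the 2-fold calls, 61.4% of those higher in siNC and 86.7% of those higher in DMSO separated every library of one table from every library of the other, treated libraries included, beside 38.7% of all features that passed. The control libraries are part of both tables and a call already sets them apart, so the higher shares among called features are partly built in.

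**Figure D3:**
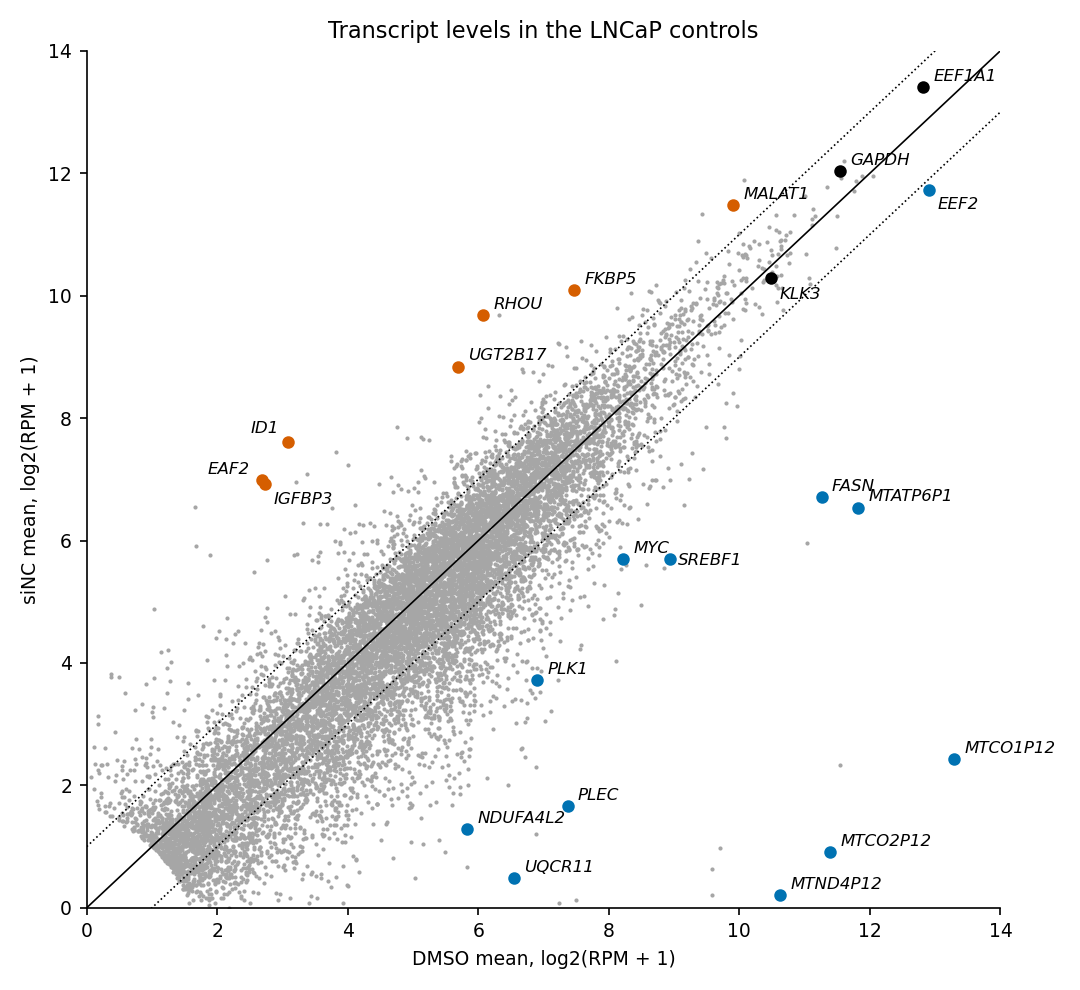
Mean level in the siNC libraries against that in the DMSO libraries, both as log2(RPM + 1), for the 12900 features that passed the level filter; the solid line marks equal levels and the dotted lines a 2-fold difference. Named genes called 2-fold higher in siNC are orange and those called higher in DMSO blue, with KLK3, GAPDH and EEF1A1 between the dotted lines and the mitochondrial copies at the lower right.

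The difference moved with the base composition of the transcripts. Spearman's rho across 12688 genes between the log2 difference and the GC content of the longest annotated transcript was -0.59, and with exon length -0.07. When the genes were cut into 10 equal bins by GC content, in the lowest bin (up to 38.4%) the median difference was 0.42, with 140 genes called higher in siNC and 36 higher in DMSO. In the highest bin (from 61.4%) the median was -1.12, with 7 and 703 genes called, so that 55.4% of that bin was called higher in DMSO. Between the siNC duplicates rho with GC content was 0.40, and between the DMSO duplicates -0.12, with medians per bin that stayed within 0.12 log2 units. Removing the median deviation of each library in 20 bins of GC content and then in 20 bins of exon length left 591 genes (4.66%) called higher in siNC and 1022 (8.05%) higher in DMSO, of which 386 and 902 had also been called before, and raised rho between the controls to 0.942. This adjustment was chosen after the data had been seen. The part of GC content in any single difference was not tested, and adjusted values are given below for several lists and some genes.

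**Figure D4:**
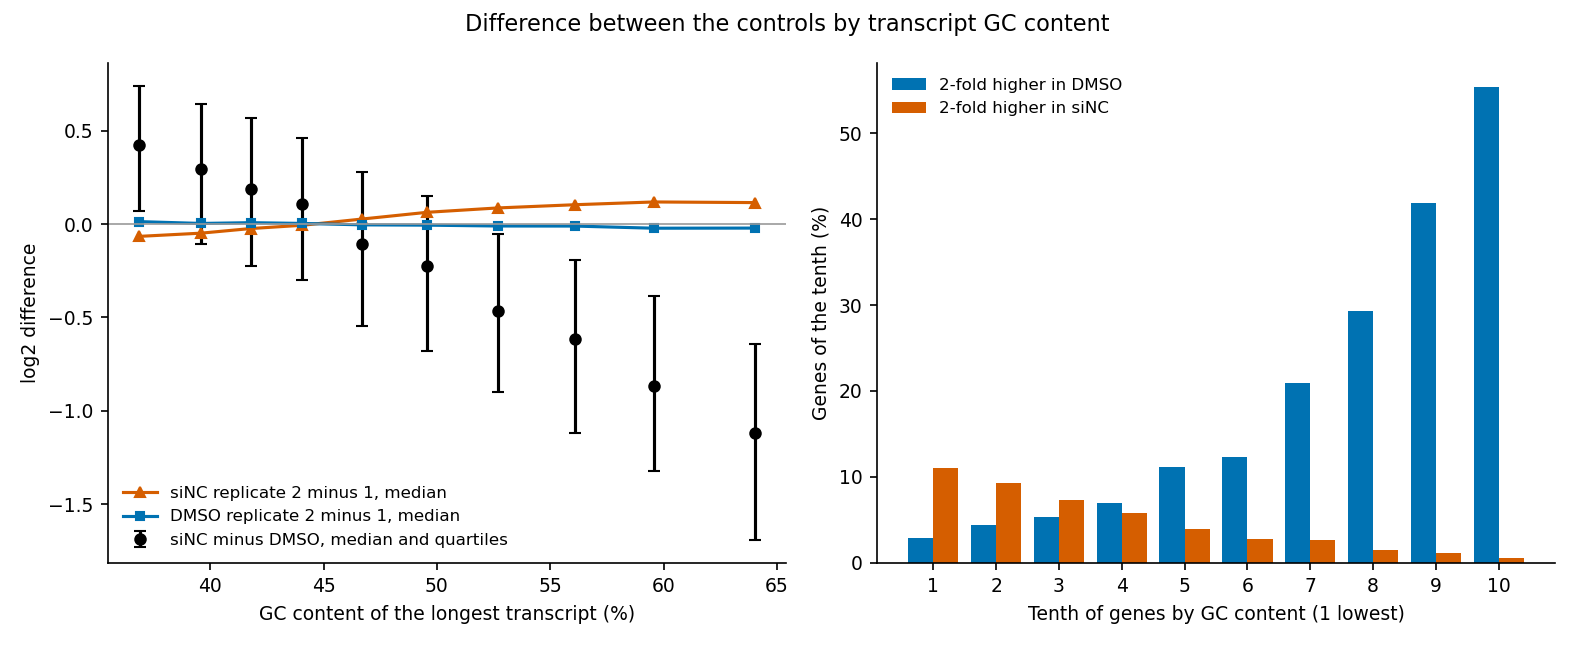
Left, the log2 difference between control means (black, median and quartiles of each of 10 equal bins of genes) and between duplicates (lines, medians) against the median GC content of the bin in percent. Right, the share of each bin called 2-fold higher in DMSO (blue) or siNC (orange); the DMSO share goes from 2.84% in the lowest bin to 55.4% in the highest.

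The 12 genes furthest above DMSO in siNC included ID1, ID3, IGFBP3, RHOU, SLC16A6, DEFB132 and EAF2, and 5 whose counts are uncertain. ID1, an inhibitor of basic helix-loop-helix factors and a target of BMP signalling, had 7.61 and 7.36 RPM in DMSO and 177 and 213 RPM in siNC. Its relative ID3 had 7.19 and 9.32 RPM against 112 and 136 RPM. No DMSO value of either gene came near a siNC value. IGFBP3, which binds insulin-like growth factors, had 5.73 and 5.57 RPM against 112 and 130 RPM, a log2 difference of 4.19 that stood at 4.36 after the GC and length adjustment. RHOU, a small GTPase, had 64.9 and 67.8 RPM against 826 and 819 RPM, and SLC16A6, a carrier of the monocarboxylate family, had 13.5 and 12.8 RPM against 173 and 172 RPM. DEFB132, a beta-defensin, had 9.86 and 8.80 RPM against 128 and 142 RPM, and SLC26A3, an intestinal anion exchanger named for its difference in rank, had 0.139 and 0.117 RPM in DMSO and 7.69 and 7.84 RPM in siNC. MRPS24 of the mitochondrial ribosome had the largest difference of all, 4.88, with 2.22 and 2.11 RPM against 86.1 and 99.2 RPM. Another gene model, URGCP-MRPS24, covers 23.2% of its exon bases, and ARL2-SNX15 covers 39.4% of those of SNX15 (0.278 and 0.323 RPM against 14.1 and 12.2 RPM), so counts of these genes are uncertain. KRTCAP2 (4.23), C11orf71 (3.89) and the pseudogene RPS3AP5 (3.84) were also among the 12 largest differences, as was EAF2, and the first 3 are uncertain for the same reason or as near copies of other genes.

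In the other direction the mitochondrial copies, with 3 humanin-like MTRNR2L genes among them, filled 10 of the 12 places. The remaining 2 were UQCR11, a subunit of respiratory complex III, with 92.6 and 92.1 RPM in DMSO and 0.308 and 0.504 RPM in siNC, and PLEC, the cytoskeletal linker plectin, with 174 and 155 RPM against 2.09 and 2.24 RPM. UQCR11 kept 83.1 to 99.0 RPM in all 8 libraries of the DMSO table and 0.308 to 1.07 RPM in all 10 of the siNC table, and other gene models cover 10.9% of its exon bases. PLEC, with 67.0% GC, stood 5.70 log2 units lower in siNC and 4.15 lower after the adjustment. By rank UQCR11 stood at the mean percentile 85.4 in DMSO and 21.5 in siNC, and ID1 and EAF2 stood at 43.8 and 40.8 in DMSO and at 93.9 and 89.7 in siNC.

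The genes of the androgen axis leaned towards siNC. All 35 genes of the androgen-induced list passed the filter. Of these, 8 were called 2-fold higher in siNC and 4 in DMSO, beside 4.6% and 19.2% of all features. Their median difference was 0.55, beside -0.20 over all features (0.73 beside -0.01 after the GC and length adjustment). FKBP5, a co-chaperone of steroid receptors, had 172 and 179 RPM in DMSO and 1094 and 1082 RPM in siNC, a 6.19-fold higher mean. EAF2, an elongation factor partner, had 5.35 and 5.54 RPM against 125 and 127 RPM, 23.1-fold by means, the largest difference of the list. STEAP4 had 1.32 and 1.08 RPM against 16.8 and 17.5 RPM, and ELL2, a partner of EAF2 in transcript elongation, had 88.1 and 91.6 RPM against 247 and 254 RPM. ACSL3, which activates fatty acids, had 387 and 393 RPM against 1079 and 1076 RPM. These 5 genes were called, and a call already requires that no library of one control reaches the other control. Genes of the same list went the other way: TSC22D3, a leucine zipper protein also induced by glucocorticoids, had 104 and 105 RPM in DMSO and 13.2 and 17.2 RPM in siNC, and ADAM7 had 23.9 and 21.7 RPM against 3.08 and 3.58 RPM. CAMKK2 and KLK4 were called higher in DMSO at differences of -1.06 and -1.11, which the adjustment reduced to -0.39 and -0.47.

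Several genes that androgens repress were also higher in siNC, among them IGFBP3 and the UGT2B enzymes. UGT2B17, which conjugates testosterone and dihydrotestosterone, had 49.6 and 51.3 RPM in DMSO and 489 and 426 RPM in siNC. UGT2B15 had 31.7 and 36.1 RPM against 221 and 190 RPM, UGT2B11 had 10.6 and 11.3 RPM against 77.7 and 75.1 RPM, and UGT2B28 had 4.90 and 4.72 RPM against 13.8 and 17.4 RPM. The 4 genes are near-identical over long stretches, so how reads were divided among them is uncertain. Each was higher in both siNC libraries, which a 2-fold call already requires and which is no check of that division. UGDH, which makes their sugar donor, had 84.7 and 89.7 RPM against 293 and 308 RPM. Beside these, IGFBP3, DDC (63.7 and 64.3 RPM against 338 and 324 RPM) and the cholinesterase BCHE (67.2 and 69.4 RPM against 214 and 192 RPM) were higher in siNC. Of 17 androgen-repressed genes 16 passed, with a median of 0.17. Of these, 6 were called higher in siNC and 2, MAPT and OPRK1, in DMSO, beside 4.6% and 19.2% of all features. In the list for androgen synthesis and breakdown 9 of 12 measured genes passed. The 5 called there were all higher in siNC, beside the same 4.6% of all features. The UGT2B genes and UGDH hold 37.9 to 40.8% GC, and the list's median went from 1.51 to 0.84 with the adjustment. The androgen-synthetic CYP17A1 and HSD3B1 stayed at or under 0.313 RPM in the 4 control libraries.

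Messages of cell division were at lower levels in siNC. In the list for mitosis and G2/M, 29 of 30 genes lay lower in both siNC libraries than in both DMSO libraries, beside 7162 of all 12900 features. Of the 30, 21 were called 2-fold higher in DMSO, beside 19.2% of all features, and the median difference was -1.16. PLK1, a kinase that drives mitotic entry and spindle assembly, had 118 and 119 RPM in DMSO and 11.4 and 13 RPM in siNC. FOXM1, the transcription factor of this programme, had 82.4 and 84.4 RPM against 9.91 and 7.84 RPM, and CDC20, the activator of the anaphase-promoting complex, had 138 and 136 RPM against 19.6 and 22.7 RPM. The proliferation antigen MKI67 had 39.5 and 40.9 RPM against 6.40 and 10.9 RPM. The exception was CDK1, the mitotic kinase itself, with 199 and 208 RPM in DMSO and 264 and 256 RPM in siNC. These genes hold a median of 43.2% GC, under the 48.0% of all features. Their median after the GC and length adjustment was -1.41, with 26 called higher in DMSO, beside 8.05% of all features. In bulk RNA, fewer dividing cells and less of these messages per cell cannot be told apart.

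The promoters of PLK1 and CDC20 are shown because the mitotic genes lay low together. Capitals mark TTTGAA, the letters of a cell cycle homology region, and ATTGG, an inverted CCAAT box, each searched on both strands.
PLK1 promoter, chr16:23678639-23678938, plus strand: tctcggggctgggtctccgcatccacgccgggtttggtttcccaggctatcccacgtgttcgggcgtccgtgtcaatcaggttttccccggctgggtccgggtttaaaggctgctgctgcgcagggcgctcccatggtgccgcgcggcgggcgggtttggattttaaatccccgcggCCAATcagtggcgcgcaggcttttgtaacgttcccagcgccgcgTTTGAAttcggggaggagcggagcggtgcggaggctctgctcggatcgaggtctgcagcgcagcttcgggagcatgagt
CDC20 promoter, chr1:43358731-43359030, plus strand: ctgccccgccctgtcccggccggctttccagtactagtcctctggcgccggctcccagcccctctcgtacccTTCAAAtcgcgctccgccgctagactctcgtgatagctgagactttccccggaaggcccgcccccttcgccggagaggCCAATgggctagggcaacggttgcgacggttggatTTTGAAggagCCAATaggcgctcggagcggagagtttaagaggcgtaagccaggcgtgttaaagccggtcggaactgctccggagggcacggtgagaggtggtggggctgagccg
RefSeq promoters were found for 24 of the 30 mitotic genes, 27 promoters in all. TTTGAA occurred in 63.0% of these and in 15.2% of all 35116, and ATTGG in 85.2% and 34.6%. In the 45 promoters of androgen-induced genes the shares were 11.1% and 40.0%. A match describes letters only, and no test was made of these shares.

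Most DNA replication genes were at lower levels in siNC. Of 33 measured S phase genes, 26 lay lower in both siNC libraries than in both DMSO libraries, beside 7162 of all 12900 features. Of the 33, 10 were called higher in DMSO and 0 in siNC, beside 19.2% and 4.6% of all features. Their median was -0.65, and after the adjustment it was -0.51 with 5 called higher in DMSO, beside 8.05% of all features. POLD1, the catalytic subunit of polymerase delta, had 58.8 and 53.5 RPM in DMSO and 6.58 and 7.50 RPM in siNC, and GINS4 of the replicative helicase had 15.9 and 16.9 RPM against 1.66 and 2.46 RPM. PCNA, the sliding clamp, was near level with 253 and 251 RPM against 238 and 227 RPM, and the helicase subunit MCM6 had 128 and 130 RPM against 147 and 139 RPM. Their signs turned with the scaling or the adjustment: PCNA stood at -0.12 as measured and 0.11 with TMM, and MCM6 at 0.14 as measured and -0.06 after the adjustment.

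Some single genes of the lipid and sugar lists held wide gaps. FASN, fatty acid synthase, had 2519 and 2380 RPM in DMSO and 92.0 and 116 RPM in siNC, a 23.6-fold lower mean that left it at rank 112 by TPM in DMSO and 3920 in siNC. Its regulator SREBF1 had 503 and 474 RPM against 46.2 and 55.9 RPM, and SCD, stearoyl-CoA desaturase, had 889 and 877 RPM against 298 and 305 RPM. No DMSO and siNC libraries overlapped for these genes, which their 2-fold calls already require. For FASN the treated libraries did not overlap either (1902 to 2519 RPM in the DMSO table against 48.9 to 186 RPM in the siNC table). FASN and SREBF1 are GC-rich, at 65.3 and 62.8%, and their differences of -4.55 and -3.24 were -3.18 and -2.04 after the adjustment. Of 15 fatty acid genes 4 were called higher in DMSO, ACACB the fourth, and 1, ACSL3, in siNC, and after the adjustment 4 and 2 were called. Of 23 cholesterol genes 6 were called higher in DMSO and 2, IDI1 and SC5D, in siNC, and after the adjustment 1 and 2 were called, with the median at -0.16 before and 0.15 after. Counts of called genes in the lipid and sugar lists stand beside 19.2% of all features called higher in DMSO and 4.6% in siNC as measured, and 8.05% and 4.66% after the adjustment. Among glycolysis and hypoxia genes 6 of 23 were called higher in DMSO and 0 in siNC, and the steepest was NDUFA4L2, a hypoxia-induced mitochondrial protein, with 56.8 and 54.7 RPM against 1.54 and 1.34 RPM. After the adjustment this list's median went from -0.70 to -0.18 and 1 member, NDUFA4L2, was called higher in DMSO and 2 in siNC.

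Among stress genes, GDF15, a secreted stress cytokine, had 596 and 597 RPM in DMSO and 118 and 136 RPM in siNC, and TRIB3, an ATF4 target, had 165 and 165 RPM against 37.5 and 36.7 RPM. The chaperone DNAJB9 (30.9 and 34.2 RPM against 129 and 117 RPM) and XBP1 (230 and 239 RPM against 473 and 469 RPM), both of the unfolded protein response, were higher in siNC. They were the 2 called higher in siNC of the 29 genes listed for the integrated stress and unfolded protein responses. In that list 5 were called higher in DMSO, where all features had 4.6% called higher in siNC and 19.2% in DMSO. Lower in both siNC libraries than in both DMSO libraries were 20 of the 29, beside 7162 of all 12900 features. The list's median was -0.52 (-0.17 after the adjustment). Interferon-stimulated genes had a median of -0.21 as measured, near the -0.20 of all features. After the adjustment their median was -0.26, beside -0.01 for all features. Of 20, 3 were called higher in DMSO (OAS3, IRF7 and STAT2) and 0 in siNC, beside 19.2% and 4.6% of all features. NFKBIA, the inhibitor of NF-kB, was higher in siNC at 157 and 167 RPM against 58.8 and 56.7 RPM, while NFKB2 was lower at 10.4 and 11.4 RPM against 45.9 and 45.2 RPM. Of 16 NRF2 targets NQO1 alone was called, beside 4.6% of all features called higher in siNC and 19.2% in DMSO. It had 124 and 129 RPM in DMSO and 406 and 431 RPM in siNC.

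Of the 15 cancer genes measured 3 were called, all higher in DMSO, a share near the 19.2% of all features. MYC differed most, with 297 and 295 RPM in DMSO and 50.3 and 51.6 RPM in siNC, 5.81-fold lower by means and -2.18 on the adjusted log2 scale. The kinase gene ATM was also called higher in DMSO, with 45.0 and 43.0 RPM against 15.3 and 20.7 RPM. The Ets factor ETV1 had 144 and 144 RPM against 300 and 272 RPM, a difference of 0.99, just under the 2-fold rule. PARP1, the main poly(ADP-ribose) polymerase, had 540 and 534 RPM against 428 and 467 RPM, and PARP2 had 42.7 and 42.1 RPM against 27.4 and 25.2 RPM. Of 15 members of that family that passed, 1 was called in each direction, beside 4.6% of all features higher in siNC and 19.2% in DMSO. These were TIPARP, higher in siNC (8.44 and 7.92 RPM against 27.9 and 25.8 RPM), and PARP10, higher in DMSO (91.4 and 83.0 RPM against 21.6 and 24.0 RPM). After the GC and length adjustment PARP10 was no longer called. Then 1 member was called higher in siNC and 0 in DMSO, beside 4.66% and 8.05% of all features. The nuclear noncoding RNA MALAT1 had 966 and 950 RPM in DMSO and 3448 and 2250 RPM in siNC, and NEAT1 of paraspeckles had 242 and 237 RPM against 108 and 105 RPM.

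Some genes commonly used as internal references differed between the controls. Of 15, YWHAZ alone was called, beside 4.6% of all features called higher in siNC and 19.2% in DMSO. YWHAZ was higher in siNC, with 712 and 716 RPM against 1747 and 1555 RPM, and ACTB stood at 2172 and 2137 RPM against 1262 and 1234 RPM. TBP lay at 16.0 and 15.7 RPM against 16.7 and 17.7 RPM. The list's median was 0.09. Other gene models cover at least 10% of the exon bases of CREB3L4, CYP17A1, ELF3, FOXM1, GAPDH, GINS4, IDI1, KRT18, MTCO1P12, MTCO2P12, NQO1, PLK1, RPL13A, UGT2B11 and VIM among the genes above, and how such reads were assigned was not tested.

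**Figure D5:**
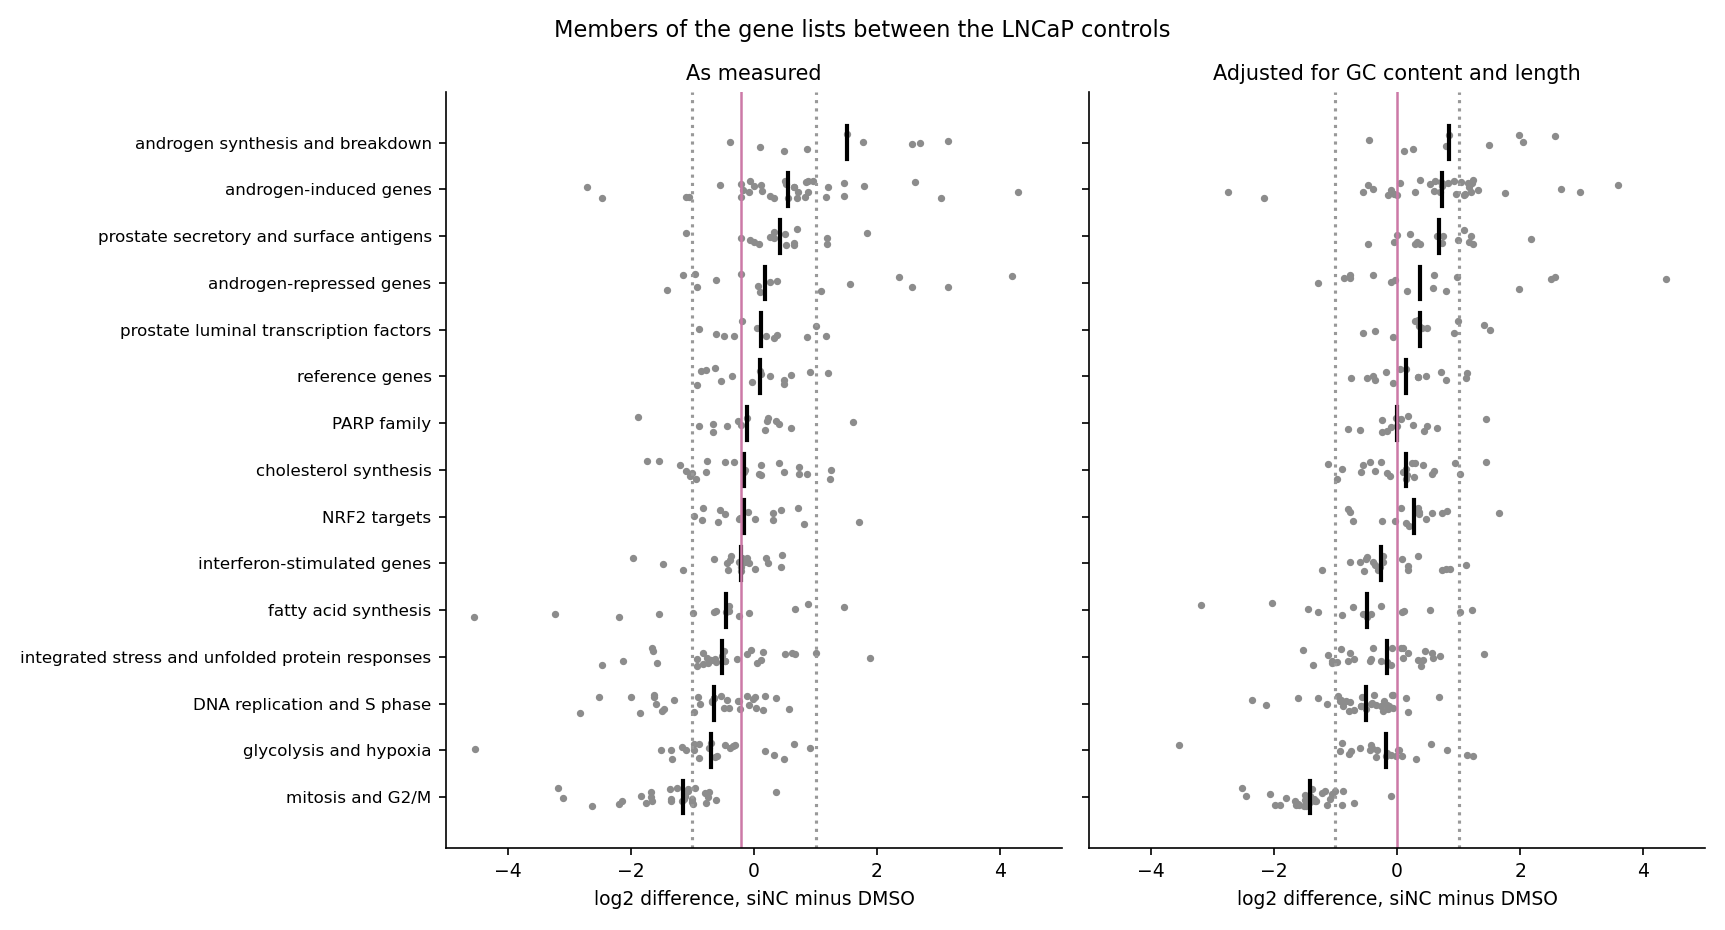
Log2 difference between the controls (siNC minus DMSO) of each member that passed the level filter (points) and the list median (black bars), as measured and after adjustment for GC content and length. The vertical solid line is the median of all features, -0.20 and -0.01, and dotted lines mark 2-fold; of the 15 lists drawn, mitosis and G2/M has the lowest median in both panels, at -1.16 and -1.41.

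Duplicates differed little beside these gaps. At 2-fold, 0 of 12900 features separated the DMSO duplicates and 3 the siNC duplicates. The chi-square per gene between duplicates, 1 for counting error alone, was 1.54 for DMSO and 4.22 for siNC. The widest siNC gap among genes with a mean of at least 5 RPM was in the mitochondrial copy MTATP6P1 (126 and 57.9 RPM), followed by the metallothionein MT2A (36.9 and 17.6 RPM), EEF2K (6.03 and 11 RPM) and ZNF121 (9.84 and 16.9 RPM). In DMSO the widest was SDCBP2-AS1, at 4.31 and 6.48 RPM.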

How the data were processed

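RNA sequencing of LNCaP cells gave 2 deposited tables, and the 4 control libraries were taken by their labels. Per the submitters' processing notes, the authors used bcl2fastq 2.18, TopHat2 2.1.0, HTSeq 0.6.1 and edgeR 3.12.0 with the human build hg19. The inhibitor table holds CPM values of the authors, as deposited. The siRNA table holds a scaled signal per gene, as deposited, whose scaling is not given in the sources used here. In both, 100% of values were whole multiples of 1 read within 0.01, and reads were recovered on that basis. They were joined by Ensembl identifier, scaled to RPM over shared features and compared as log2(RPM + 1) with Python 3.11.15, pandas 2.3.3, numpy 2.4.6 and scipy 1.17.1. Exon lengths, GC content, chromosomes and the shares of exon bases under other gene models came from GENCODE 29. Its coordinates are on another build than hg19, so these values were not taken on the build of the reads. Deposited symbols, given for 15067 of the 17714 shared features, were used first, and missing or repeated ones were filled from reference gene names. Promoters came from RefSeq (GRCh38.p14).

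A gene was called at a 2-fold difference of group means, or 10 percentile points of rank, without overlap of libraries. No test was made between tables that were normalized separately. Duplicates are labelled biological, and the control libraries hold 17.18 to 34.32 M reads, which limits precision to the stated floors; these cover counting error only. The text names the 12 largest log2 differences each way, the 8 largest by rank, the 20 highest TPM, the 10 highest in reads, and from each list the 4 highest and the 2 most different members, plus genes whose duplicates differed most. Other genes were named as members of a list after their values were seen. The members and the 30 gene lists were chosen with earlier results of these data known. Calls were recomputed with TMM (edgeR 4.0.16) and DESeq2 1.42.0 size factors in R 4.3.3, other pseudocounts and filters, each library left out, and an adjustment for GC content and length. The rule for calls was run on simulated counts with known changes. That run cannot tell apart the sources of a difference between the real controls. Some genes that the rule names are not reported here.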

Additional observations from a re-analysis of the deposited data

How the results depend on the processing

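The count of features 2-fold higher in siNC, 593, was 1059 with TMM, 1161 with DESeq2 size factors and 377 when all libraries of each table were used. The count higher in DMSO, 2471, was 1022 after the GC and length adjustment, which was added after seeing the data. The rank count higher in siNC, 1324, was 2226 with ranks taken among the features that passed only. Spearman's rho between the controls, 0.909, was 0.947 with no filter on low values, 0.902 with a mean of at least 1 RPM in both controls, 0.915 over all libraries of each table and 0.942 after the adjustment. Leaving out 1 library at a time gave 583 to 648 and 2368 to 2650 for the 2-fold counts, 1247 to 1431 and 1513 to 1643 for the rank counts, and 0.904 to 0.912 for rho. The cause of these shifts was not tested. Of 233 named genes 103 were called, and all 103 kept their sign under the other scalings, pseudocounts, left-out libraries and the adjustment. With all libraries of each table used, 100 kept it, and the others were ACPP at -0.65, ADH1C at 0.13 and MT2A at 0.39. Because a call requires libraries without overlap, another pseudocount or a left-out library could not turn a sign. A call also requires a log2 difference of at least 1. The other scalings moved the median of all features only from -0.20 to between -0.15 and 0.03. So the pseudocounts, left-out libraries and scalings are no check of direction. The sizes of the differences moved for 195 of the 233 genes with TMM and for 210 after the adjustment. No paired analysis was possible because no test was made and the controls stand in separate tables. Depth limits statements on low genes: 3 reads make 0.185 RPM in the shallowest control library.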

Other observations

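Some features were in only 1 of the tables and enter no comparison: 3677 beside the DMSO libraries and 636 beside the siNC libraries. Beside the mitochondrial genes, the siRNA table alone held SLC5A3, an inositol carrier, at 59.9 and 59.2 RPM in the siNC libraries. CGA, the shared alpha chain of the glycoprotein hormones, stood there at 6.28 and 6.10 RPM. HBB, beta globin, stood at 23.8 RPM in siNC replicate 1 and at 0.616 RPM in replicate 2, so its level rests on 1 library. The inhibitor table alone held GTF2H5, a subunit of the repair and transcription factor TFIIH, at 40.3 and 42.1 RPM in the DMSO libraries. The sulfiredoxin gene SRXN1, an NRF2 target, stood there at 16.6 and 16.9 RPM.

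Among the Argonaute pathway genes, which carry out silencing by small RNAs, DICER1, the enzyme that cuts their precursors, had 84.0 and 83.1 RPM in DMSO and 215 and 211 RPM in siNC. AGO2, TNRC6B and TNRC6C were called higher in DMSO, and DICER1 higher in siNC, of 13 genes, beside 19.2% and 4.6% of all features. After the GC and length adjustment 1 was called in each direction. The median difference of the list was -0.67 as measured and -0.13 after the GC and length adjustment.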
